A study of Mus musculus with 18 samples.

Results

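The bile acid and sterol transporters of the hepatocyte are described here as 10 genes of the 21018 that were listed in at least 1 of 3 gene count tables of mouse liver. Their rule is a list of symbols with no threshold on a measured value, drawn up with earlier results of these data known, and all 10 were found in every table. The 4 sinusoidal uptake members were Slc10a1, Slco1a1, Slco1a4 and Slco1b2. Abcc3 was the 1 sinusoidal export member, and Abcb11, Abcb4, Abcc2, Abcg5 and Abcg8 were the 5 canalicular members.

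A hepatocyte has a basolateral face toward the sinusoidal blood and an apical face that forms the bile canaliculus. Bile salts return from the intestine in the blood, enter the hepatocyte through sodium-dependent and sodium-independent carriers of the sinusoidal face, and leave through ATP-driven pumps of the canalicular face together with phospholipid and cholesterol. Reduced bile flow during acute inflammation is a known condition of the liver, and interleukin-1β (IL-1β) is a cytokine of the acute phase response.

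The 18 RNA-Seq libraries came from the livers of 6 male C57/B6J mice of 12 weeks, of which 3 (mice ILB.9579, ILB.9582 and ILB.9583) were given 20 µg/kg IL-1β and 3 (mice UNT.9574, UNT.9575 and UNT.9576) were given saline 4 h before collection. RNA of each liver was prepared with the Pico kit (stranded total RNA, 1.7 to 2.6 ng), the V4 kit (unstranded poly(A) RNA, 0.8 to 1.3 ng) and the TruSeq kit (stranded poly(A) RNA, 200 ng). Each kit therefore held 3 IL-1β and 3 saline libraries. Mice are named below as in the labels (ILB for IL-1β, UNT for saline). The labels gave no batch other than the kit. RNA input changed with the kit, and read length and sequencer differed between TruSeq and both Pico and V4.

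Library totals were 12348864 to 12423406 counts in IL-1β and 12654762 to 12858237 in saline mice in TruSeq, and 4024632 to 4046380 and 4081976 to 4134070 in Pico. In V4 the totals of 12055184 to 12173492 and 12013453 to 12352473 overlapped. Levels are given in CPM, the usual scaling of a gene's count to the total of its library. The hepatocyte markers Alb, Ttr, Apoa1, Apob, Tat and Cps1 were all detected, with a summed level of 38780 to 108708 CPM over the 18 libraries. The 7 cholangiocyte markers had a summed level of 42.7 to 120.1 CPM. Among them, the keratins Krt19 and Krt7 stayed at or below 3.07 and 4.45 CPM.

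IL-1β lowered the transcripts of the transporters on both faces of the hepatocyte. All 10 members had a negative log2 fold change (IL-1β minus saline) in each kit. In limma-voom, with Benjamini-Hochberg adjustment over all genes of a kit and a threshold of adjusted p of 0.05, 9 of 10 members were lower in TruSeq, 10 of 10 in Pico and 6 of 10 in V4. Of all genes tested, 21.8% were called lower in TruSeq, 10.8% in Pico and 7.41% in V4. A stricter filter kept genes with at least 10 counts in 3 libraries. It left 4197 of 12755 genes lower in TruSeq, 2138 of 11318 in Pico and 1422 of 11821 in V4. In V4, Abcb4 and Abcg5 were then called lower too. No member was called higher in any kit, at adjusted or unadjusted p. The members called in all 3 kits numbered 6, namely the 4 uptake carriers, Abcc2 and Abcg8.

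In 1 fit of all 18 libraries, Abcc3, Abcb11 and Abcg5 were no longer called in Pico, while Abcg5 and Abcb4 were called lower in V4. The V4 count was the least settled when a library was left out. Leaving out IL-1β mouse ILB.9583, saline mouse UNT.9574 or saline mouse UNT.9575 from V4 left 3 members called (Slc10a1, Slco1a4 and Abcc2), while leaving out saline mouse UNT.9576 raised the count to 8. The median log2 fold change of the 10 members was -0.88 in TruSeq, -0.72 in Pico and -0.91 in V4, against -0.17, -0.12 and -0.22 over all genes tested. Scaling by trimmed mean of M-values (TMM) moved the median of all genes by 0.16, 0.13 and 0.17, which brought it to -0.01, 0.02 and -0.06, and 9, 9 and 5 members were then called lower. Among all called genes, 64%, 61.4% and 67.3% were lower with library totals and 49.1%, 47.1% and 50.3% with TMM factors (TruSeq, Pico and V4). In whole liver, fewer cells of a type and less RNA per cell cannot be told apart.

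Every IL-1β library lay below every saline library for 9 of 10 members in TruSeq, 10 of 10 in Pico and 9 of 10 in V4. Among all genes tested, 27.9% were ordered this way in TruSeq, 18.6% in Pico and 18.6% in V4. The exceptions were Abcc3 in V4 and Abcb11 in TruSeq. For Abcb11 the gap was narrow, with the highest IL-1β and lowest saline library at 80.1 and 80.7 CPM in V4 and 453 and 459 CPM in Pico. The order was not computed with TMM factors. The plot of CPM in every library shows the members by kit and treatment.

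**Figure D1:**
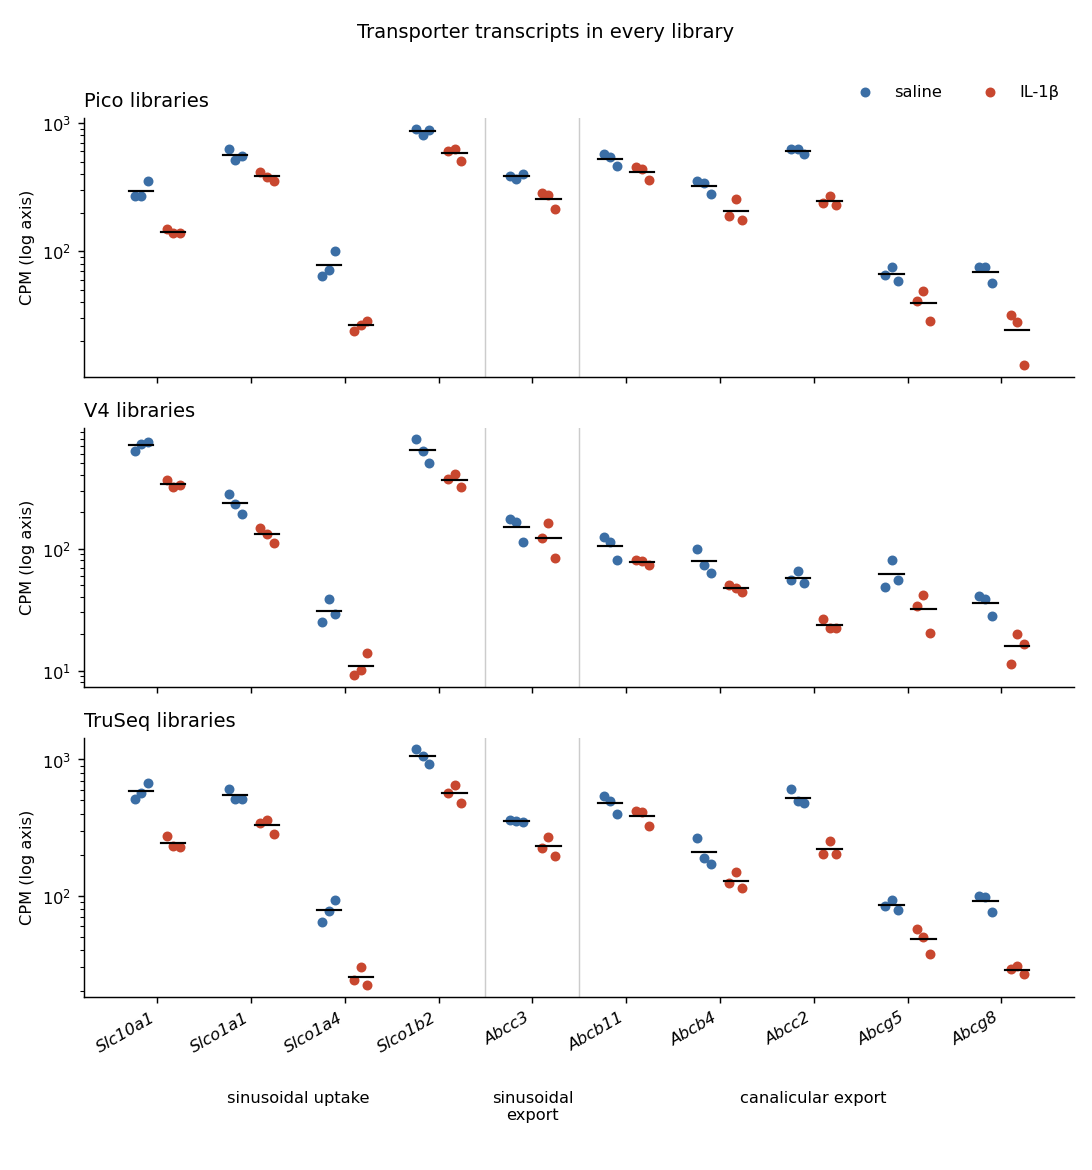
Level of each member in CPM on a log axis in the Pico, V4 and TruSeq libraries, with 1 point per mouse (saline blue, IL-1β red) and a black line at the mean of the 3 mice. The red points lie below the blue ones for every member except Abcc3 in V4 and Abcb11 in TruSeq.

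The main uptake carrier of conjugated bile salts, Slc10a1, fell to 42.1%, 48.5% and 48.3% of its saline level in TruSeq, Pico and V4. Slc10a1 (ENSMUSG00000021135, chr12:82054172-82068971, minus strand, mm9) encodes the sodium taurocholate cotransporting polypeptide. In TruSeq its level was 515, 563 and 668 CPM in the saline mice UNT.9574, UNT.9575 and UNT.9576, and 274, 233 and 226 CPM in the IL-1β mice ILB.9579, ILB.9582 and ILB.9583. In Pico the saline mice had 267, 268 and 351 CPM and the IL-1β mice 148, 139.6 and 139 CPM. In V4 they had 636, 722 and 749.6 CPM and 365, 319 and 334 CPM. The treatments were well apart in every kit, and saline mouse UNT.9576 was the highest in all 3. The log2 fold change (± SE) was -1.25 ± 0.12 in TruSeq, -1.04 ± 0.13 in Pico and -1.05 ± 0.13 in V4, with adjusted p of 6.24e-05 in TruSeq, 2.28e-05 in Pico and 7.13e-04 in V4.

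The 3 Slco members are organic anion transporters that take up unconjugated bile acids, bilirubin conjugates, hormones and drugs without sodium. Their genes lie in 1 cluster on chromosome 6 in the order Slco1b2, Slco1a4, Slco1a1, with 118793 and 51082 bases between neighbours. Slco1a4 (ENSMUSG00000030237, chr6:141753961-141804720, minus strand) had the strongest response of the 4 uptake members. Its counts in the saline mice were 811, 991 and 1192 in TruSeq, 264, 295 and 412 in Pico and 298, 464 and 361 in V4. In the IL-1β mice they were 299, 369 and 271 in TruSeq, 97, 108 and 115 in Pico and 111, 121 and 167 in V4. No IL-1β library reached the lowest saline library of its kit. The log2 fold change was -1.62 ± 0.16 in TruSeq, -1.55 ± 0.21 in Pico and -1.48 ± 0.28 in V4, and the adjusted p was 8.09e-05 in TruSeq, 5.94e-05 in Pico and 0.00777 in V4.

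Slco1a1 (ENSMUSG00000041698, chr6:141855803-141895483, minus strand) changed less than its neighbour. It ranged from 510.3 to 607 CPM in saline and 285 to 362 CPM in IL-1β mice in TruSeq. The corresponding ranges were 513 to 631 and 352 to 416 CPM in Pico, and 194 to 279 and 112 to 147 CPM in V4. Its log2 fold change was -0.72 ± 0.12 in TruSeq, -0.56 ± 0.10 in Pico and -0.84 ± 0.18 in V4 (adjusted p 0.0011 in TruSeq, 9.04e-04 in Pico and 0.0137 in V4). The treatments did not overlap, and saline mouse UNT.9574 was the highest in each kit. The V4 call was lost in 4 of the 6 fits without a library.

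Slco1b2 (ENSMUSG00000030236, chr6:141578039-141635167, plus strand), the mouse carrier nearest to the human OATP1B proteins, had the highest CPM of all members in the TruSeq and Pico saline libraries. The TruSeq values were 1186, 1056 and 922 CPM in saline and 568, 652 and 475 CPM in IL-1β mice. Pico gave 799 to 891 and 509 to 625 CPM, and V4 gave 503 to 789 and 321 to 413 CPM. The fall was -0.90 ± 0.13 in TruSeq, -0.57 ± 0.09 in Pico and -0.78 ± 0.18 in V4 on the log2 scale (adjusted p 7.02e-04 in TruSeq, 2.98e-04 in Pico and 0.0179 in V4). In V4 the call was lost with TMM factors, where the log2 fold change was -0.61, and in 5 of the 6 fits that left out a library. The Slco1 genes are paralogs, so reads in stretches they share could be credited to a neighbour, and how such reads were split was not tested. The other genes of the cluster, Slco1a5, Slco1a6, Gm6614 and Slco1c1, had at most 8 counts in any library where they were listed, and Gm5724 was not listed in the tables used here.

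Abcc3, the sinusoidal export member, carries bile acid and bilirubin conjugates back to the blood and is known to rise in some forms of cholestasis. Here it fell in Pico and TruSeq. Abcc3 (ENSMUSG00000020865, chr11:94204612-94254311, minus strand) had 361, 353 and 345 CPM in the saline and 225, 269 and 194 CPM in the IL-1β mice in TruSeq. Pico gave 385, 366 and 398 CPM and 282, 274 and 214 CPM. V4 gave 175, 166 and 112 CPM and 123, 163 and 84.3 CPM. The treatments were separate in Pico and TruSeq and overlapped in V4, where IL-1β mice ILB.9579 and ILB.9582 exceeded saline mouse UNT.9576. The log2 fold change was -0.63 ± 0.12 in TruSeq, -0.59 ± 0.11 in Pico and -0.32 ± 0.25 in V4, with adjusted p of 0.00274 in TruSeq, 0.0014 in Pico and 0.5 in V4. The 95% interval in V4 ran from -0.86 to 0.23.

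The canalicular members ranged from Abcb11, with a small change, to Abcg8, with one of the largest. Abcb11 (ENSMUSG00000027048, chr2:69076339-69180671, minus strand), the bile salt export pump, changed least of all 10 in TruSeq and Pico, and only Abcc3 changed less in V4. Its TruSeq levels were 542, 498 and 396 CPM in saline and 418, 413 and 326 CPM in IL-1β mice. In Pico it had 571, 547 and 459 CPM and 453, 436 and 361 CPM, and in V4 124, 113 and 80.7 CPM and 80.1, 78.5 and 73.1 CPM. Saline mouse UNT.9576 was the lowest and saline mouse UNT.9574 the highest saline mouse in every kit, and in TruSeq mouse UNT.9576 lay below 2 of the 3 IL-1β mice.

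For Abcb11 the log2 fold change was -0.31 ± 0.14 in TruSeq, -0.34 ± 0.11 in Pico and -0.43 ± 0.19 in V4, and the adjusted p was 0.123 in TruSeq, 0.0426 in Pico and 0.192 in V4. The fall passed the threshold in Pico and not in V4 or TruSeq. In Pico the call was lost in 5 of the 6 fits without a library and with TMM factors, where the value was -0.20. Without saline mouse UNT.9576 the values in V4 and TruSeq were -0.62 and -0.44 and passed the threshold. Exons of Abcb11 share 136 bases with Gm13613 and 19 bases with Gm13614 on the opposite strand, which the unstranded V4 kit cannot separate. Of that pair, Gm13614 was listed in the V4 table and Gm13613 in none.

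Promoter sequences were read from RefSeq (GRCm38.p6) as the 250 bases before each start, and 9 of the 10 members had an entry. Abcc3 had none. Abcb11 and Slco1b2 are shown, 5′ to 3′ in the direction of the gene, because both held a match to the binding element of the bile acid receptor FXR, an inverted repeat of the nuclear receptor half-site AGGTCA spaced by 1 base, with at most 1 letter different. Capitals mark this match and, in Slco1b2, the HNF1 half-site GTTAAT:
Abcb11 (chr2:69342617-69342866, minus strand): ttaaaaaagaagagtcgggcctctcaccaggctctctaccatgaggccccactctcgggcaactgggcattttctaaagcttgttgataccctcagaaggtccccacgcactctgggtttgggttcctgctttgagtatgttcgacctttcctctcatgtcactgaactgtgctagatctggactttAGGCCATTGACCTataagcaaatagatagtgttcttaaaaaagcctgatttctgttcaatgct
Slco1b2 (chr6:141629268-141629517, plus strand): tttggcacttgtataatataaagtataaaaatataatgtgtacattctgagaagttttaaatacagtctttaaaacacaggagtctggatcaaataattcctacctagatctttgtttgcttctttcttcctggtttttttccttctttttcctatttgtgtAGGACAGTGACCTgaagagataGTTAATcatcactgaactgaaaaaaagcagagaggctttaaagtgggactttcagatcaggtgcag
The match lay 63 to 51 bases before the start of Abcb11 and 88 to 76 bases before that of Slco1b2. Only 0.0791% of 32851 promoter windows of this length held one.

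Abcb4 (ENSMUSG00000042476, chr5:8893717-8959225, plus strand) moves phosphatidylcholine into bile, where it protects the ducts from bile salts. It had 266, 187 and 171 CPM in saline and 124, 149 and 113 CPM in IL-1β mice in TruSeq. The ranges were 281 to 353 and 175 to 256 CPM in Pico and 63.6 to 98.8 and 44.0 to 50.5 CPM in V4, with no overlap in any kit. Its log2 fold change was -0.68 ± 0.17 in TruSeq, -0.66 ± 0.14 in Pico and -0.71 ± 0.21 in V4, with the narrowest range over kits of any member at 0.04. The adjusted p of 0.0118 in TruSeq, 0.00241 in Pico and 0.0504 in V4 left V4 just above the threshold, and in TruSeq the call was lost without IL-1β mouse ILB.9579 or ILB.9583.

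Abcc2 (ENSMUSG00000025194, chr19:43856682-43912441, plus strand), the canalicular pump for bilirubin glucuronide, glutathione conjugates and divalent bile salts, fell to 41.7%, 40.3% and 41.1% of saline in TruSeq, Pico and V4. TruSeq gave 603, 491 and 481 CPM in saline and 203, 252 and 203 CPM in IL-1β mice. Pico gave 625, 630.1 and 569.9 CPM and 236, 272 and 229 CPM. V4 gave much lower levels of 55.2, 65.4 and 52.6 CPM and 26.5, 22.5 and 22.1 CPM. Despite the gap in level, the log2 fold change was -1.26 ± 0.12 in TruSeq, -1.31 ± 0.10 in Pico and -1.28 ± 0.20 in V4. The adjusted p was 7.08e-05 in TruSeq, 1.56e-07 in Pico and 0.00282 in V4, and the call held in every fit that left out a library.

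Abcg5 and Abcg8 encode the partner subunits of the canalicular sterol exporter, which works only as a heterodimer. The genes stand head to head on chromosome 17. Abcg5 (ENSMUSG00000040505, chr17:85057574-85082351, minus strand) and Abcg8 (ENSMUSG00000024254, chr17:85075642-85099673, plus strand) overlap in the annotation, because 1 of the 4 Abcg8 transcripts starts inside Abcg5 and shares 82 exon bases with it on the opposite strand. The starts of the main transcripts, Abcg5-001 and Abcg8-001, leave 109 bases between them (mm9 chr17:85082352-85082460). The sequence is shown because both partners are read outward from it, plus strand 5′ to 3′, with matches to the GATA motif AGATAA in capitals (on the minus strand):
Abcg5-Abcg8 interval: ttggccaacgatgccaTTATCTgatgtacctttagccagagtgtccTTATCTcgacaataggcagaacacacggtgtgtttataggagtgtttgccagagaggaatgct
It held 2 matches, and 3.98% of all RefSeq promoter windows cut to the same 109 bases held at least 1.

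**Figure D2:**
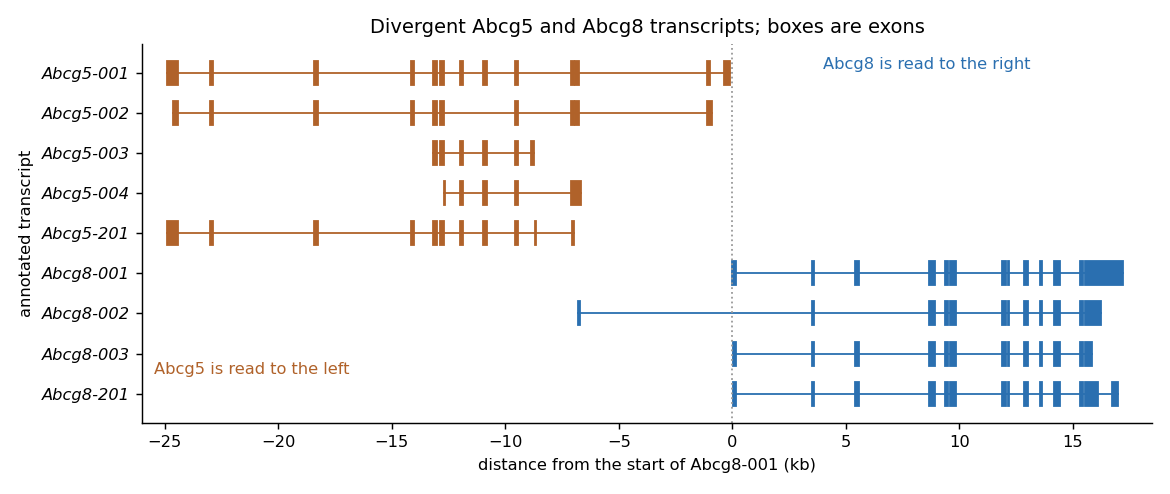
Annotated transcripts of Abcg5 (brown) and Abcg8 (blue) by distance in kb from the start of Abcg8-001, with exons as boxes and introns as lines. Abcg5-001 and Abcg8-001 start next to each other at the dotted line, and Abcg8-002 starts within Abcg5.

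In the stranded kits Abcg8 had a larger log2 fold change than Abcg5. Abcg8 counts in TruSeq were 1252, 1250 and 974 in saline and 356, 375 and 331 in IL-1β mice, and Abcg5 counts were 1060, 1194 and 1009 and 707, 612 and 458. In Pico, Abcg8 had 309, 311 and 234 counts in saline and 128, 114 and 52 in IL-1β mice, and Abcg5 had 267, 312 and 244 and 166, 196 and 115. The saline mice had nearly equal counts of both genes, whereas every IL-1β mouse had more of Abcg5. In V4, Abcg8 had 496, 471 and 345 and 139, 239 and 201 counts, and Abcg5 had 588, 975 and 681 and 413, 500 and 245. There Abcg5 exceeded Abcg8 in all 6 mice.

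The log2 fold change of Abcg8 was -1.66 ± 0.13 in TruSeq, -1.60 ± 0.26 in Pico and -1.19 ± 0.27 in V4 (adjusted p 2.08e-05 in TruSeq, 3.93e-04 in Pico and 0.0192 in V4). That of Abcg5 was -0.85 ± 0.15 in TruSeq, -0.79 ± 0.20 in Pico and -0.97 ± 0.29 in V4 (adjusted p 0.00216 in TruSeq, 0.01 in Pico and 0.0516 in V4), so that V4 just missed the threshold. The Pico call of Abcg5 was lost in 4 of the 6 fits without a library, and so was the V4 call of Abcg8. The plot of log2 fold changes sets the 10 members beside each other.

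**Figure D3:**
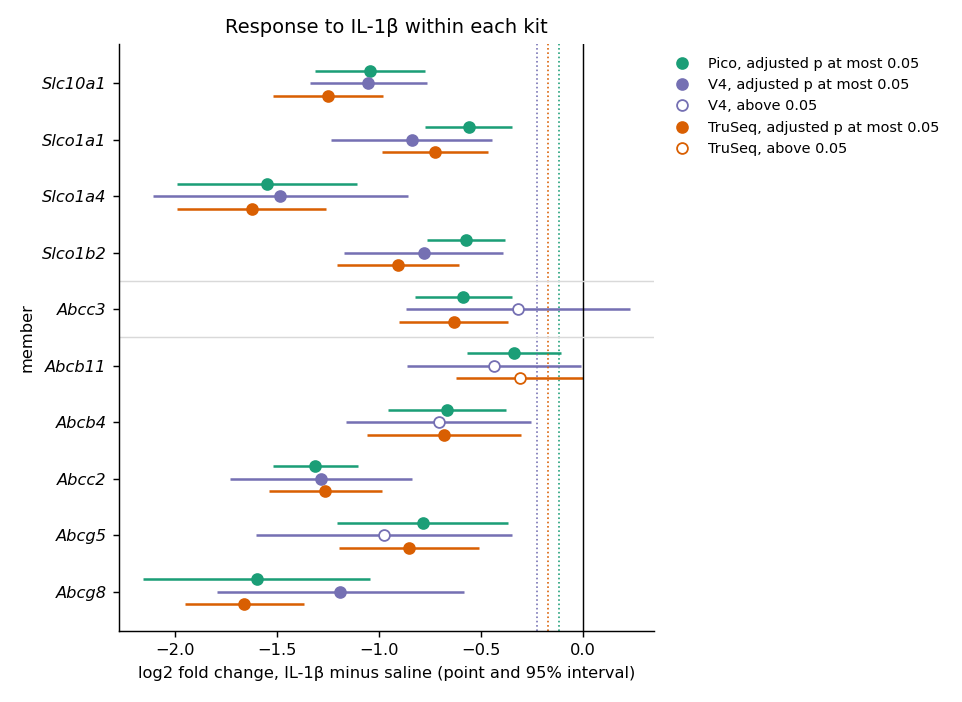
Log2 fold change of each member, IL-1β minus saline, with its 95% interval in Pico (green), V4 (purple) and TruSeq (orange), filled where the adjusted p was at most 0.05. Dotted lines mark the median of all genes of a kit, at -0.12, -0.22 and -0.17. Slco1a4, Abcg8, Abcc2 and Slc10a1 lie farthest to the left. Nearest to 0 is Abcb11 in Pico and TruSeq and Abcc3 in V4.

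The response of the members was then compared between kits, which asks whether the preparation of the library changed the estimate. The tables were normalized separately by kit. The interaction of kit and treatment in limma-voom was called for 0 of 10 members in each pairing of kits (Pico with TruSeq, V4 with TruSeq, Pico with V4). The background was also 0% in each, with 0 of 17207, 17147 and 16395 genes called, while 945, 1090 and 900 genes had an unadjusted p under 0.05. No member had one in this fit, which leaves out the mouse. Without mouse UNT.9576, the calls over all genes were 0, 57 and 39, again with 0 members. The edgeR quasi-likelihood test called 0 genes in each pair, and DESeq2 called 4, 72 and 17 genes, none of them a member. The smallest unadjusted p among members was that of Slco1b2, whose log2 fold change was 0.33 higher in Pico than in TruSeq (95% interval -0.02 to 0.69, adjusted p 0.900). With the mouse as a block, the interval of Slco1b2 was 0.12 to 0.55 (limma p 0.00632, adjusted p 0.599). The largest difference was that of Abcg8, for which the V4 value was 0.47 higher than that in TruSeq (95% interval -0.17 to 1.11, adjusted p 0.918). With the block, Abcg8 had 0.49 (0.0025 to 0.98, limma p 0.0491, adjusted p 0.677), and Slc10a1 had 0.20 between Pico and TruSeq (0.00057 to 0.40, limma p 0.0495, adjusted p 0.670). These 3 members thus had an unadjusted p under 0.05 with the block, and none passed the adjusted threshold. With 3 mice per treatment in each kit, such intervals leave room for sizeable differences.

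Sinusoidal uptake was set against canalicular export within each library, as the mean log2 CPM of the 4 uptake members minus that of the 5 canalicular members. This difference does not depend on the scaling of the library. In Pico it was 0.58 ± 0.30 (SD, n = 3) in saline and 0.59 ± 0.26 in IL-1β mice. In V4 it was 1.91 ± 0.10 and 1.79 ± 0.14, and in TruSeq 0.94 ± 0.23 and 0.77 ± 0.01. The change after IL-1β was 0.01, -0.12 and -0.17, and in each kit the ranges of the treatments overlapped. A shift between the faces larger than the spread between mice was not detected. With the median over members in place of the mean, the V4 change was 0.12 rather than -0.12. Saline mouse UNT.9576 had the highest value of all mice in every kit. In that mouse Slc10a1 was the highest and Abcb11 the lowest of the saline mice in each kit.

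Pairs of members were compared by the log2 ratio of their counts in a library. With 3 mice against 3, the exact permutation test, two-sided over 20 assignments, cannot go below 0.1, and 15 relations were tested. The share of other gene pairs whose ratio separates the treatments was not computed. The ratio of Slc10a1 to Abcb11, the main importer to the main exporter of bile salts, was lower in every IL-1β mouse than in any saline mouse of its kit. In TruSeq it was 0.951, 1.13 and 1.69 in saline and 0.656, 0.563 and 0.694 in IL-1β mice. The difference was -0.94 in TruSeq, -0.71 in Pico and -0.62 in V4 on the log2 scale, without overlap of the treatments in any kit (exact permutation p 0.1, adjusted p 0.115 in each).

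The ratio of Abcg5 to Abcg8 was 0.847, 0.955 and 1.04 in saline and 1.98, 1.63 and 1.38 in IL-1β mice in TruSeq. In Pico it was 0.864, 1.0 and 1.04 and 1.30, 1.72 and 2.20. Both stranded kits showed the ratio higher in all IL-1β mice, by 0.81 and 0.81 on the log2 scale (exact permutation p 0.1, adjusted p 0.115). In V4 the ratio was 1.19, 2.07 and 1.97 in saline and 2.96, 2.09 and 1.22 in IL-1β mice. These values overlapped (difference 0.21, exact permutation p 0.5, adjusted p 0.5). The part of the bases shared on opposite strands in the V4 ratio was not tested.

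Abcc3 relative to Abcc2, a basolateral against a canalicular pump of conjugates, was higher in every IL-1β mouse than in any saline mouse of its kit. In TruSeq the ratio was 0.599, 0.718 and 0.716 in saline and 1.11, 1.07 and 0.958 in IL-1β mice, and the difference was 0.63 in TruSeq, 0.73 in Pico and 0.97 in V4 on the log2 scale (exact permutation p 0.1, adjusted p 0.115). For Slco1a1 relative to Slco1a4 the difference was 0.90 in TruSeq, 0.99 in Pico and 0.64 in V4, with an exact permutation p of 0.1, 0.1 and 0.2 (adjusted p 0.115, 0.115 and 0.214), and the treatments overlapped in V4. None of these ratios passed the threshold, which the exact permutation test cannot reach with 3 mice against 3. For Abcb4 relative to Abcb11 it was -0.37 in TruSeq, -0.33 in Pico and -0.27 in V4, without overlap in any kit (exact permutation p 0.1, adjusted p 0.115). The plot of ratios shows each library.

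**Figure D4:**
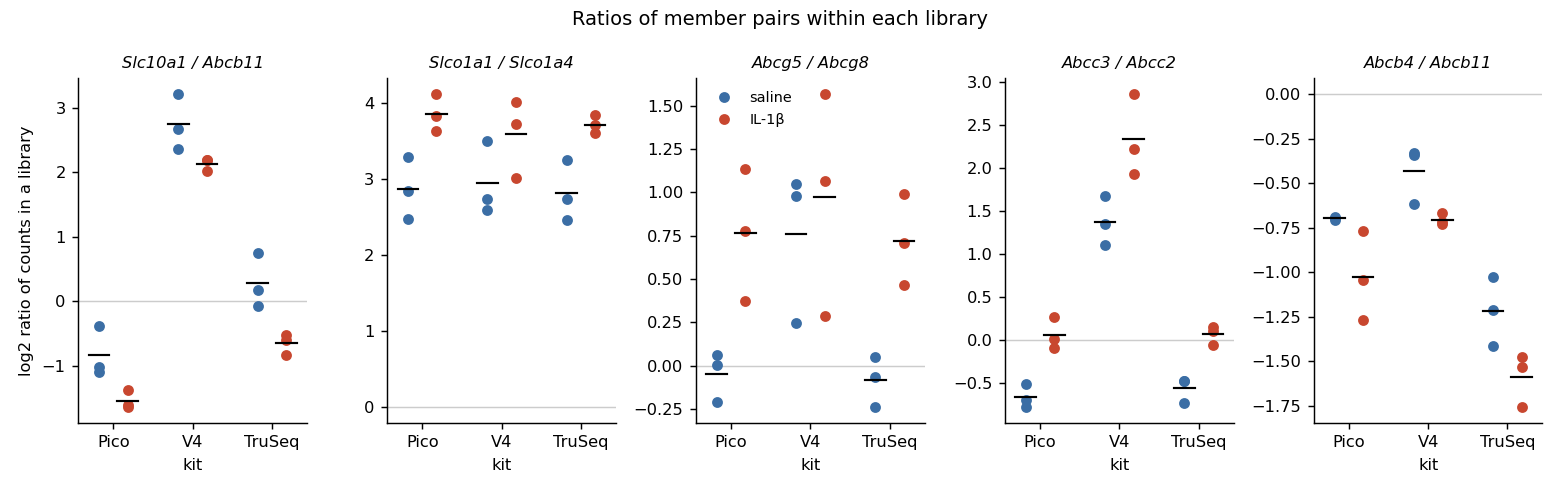
Log2 ratio of the counts of 5 member pairs in each library (saline blue, IL-1β red, black line at the mean of 3 mice) by kit, each panel with its own axis. The treatments separate in every panel and kit except Slco1a1 to Slco1a4 and Abcg5 to Abcg8 in V4.

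Levels were compared between members per length, as CPM per kb of merged annotated exons. In TruSeq saline libraries, Slc10a1 was highest at 369 ± 49.5 CPM per kb (SD, n = 3), followed by Slco1b2 at 214 ± 26.8 and Slco1a1 at 103 ± 10.4. Abcb11 at 94.9 ± 14.8 and Abcc2 at 91.4 ± 11.7 CPM per kb followed, and the range of Abcb11 overlapped those of Slco1a1 and Abcc2. Abcc3 had 62.0 ± 1.42 and Abcb4 50.8 ± 12.4 CPM per kb, with overlapping ranges. The lowest were Abcg5 at 31.1 ± 2.74, Abcg8 at 24.2 ± 3.48 and Slco1a4 at 20.3 ± 3.72 CPM per kb, of which the last pair overlapped. After IL-1β, Abcb11 moved from the fourth to the third place in TruSeq, at 76.4 ± 10.3 CPM per kb, and its range overlapped that of Slco1a1 at 62.5 ± 7.55. With coding length in place of exon length the level moved by more than its SD for 27 of 30 values, and in Pico Slco1b2 rather than Slc10a1 then stood first.

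The order depended on the kit. In V4 saline libraries Slc10a1 stood at 445 ± 37.4 CPM per kb, while Abcb11 had 21.0 ± 4.49 and Abcc2 10.1 ± 1.2 CPM per kb. In mean CPM of the saline mice, Abcc2 was 9.09 times and Abcb11 4.52 times lower in V4 than in TruSeq, whereas Slc10a1 was 1.21 times higher. Since each table was normalized on its own, levels set across kits are a description. Slc10a1 has the shortest summed exon length of the 10, at 1579 bases, and Abcc2 the longest, at 5743 bases. Among the 8320 genes whose mean count reached 50 in V4 and TruSeq alike, the median ratio of V4 to TruSeq was 1.68 under 2000 bases and 0.623 from 4000 to 6000 bases. Pico went the other way, with a median of 0.808 and 1.09 in those ranges, and Slc10a1 was 1.97 times lower in Pico than in TruSeq. Every member, uptake carriers included, had a larger SE of its log2 fold change in V4 than in TruSeq or Pico. Abcc2, with 267 to 791 counts in V4, was called there. Abcg5 was missed in V4 with 245 to 975 counts and called in Pico with 115 to 312. The part of the counts in the missed calls was not tested.

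**Figure D5:**
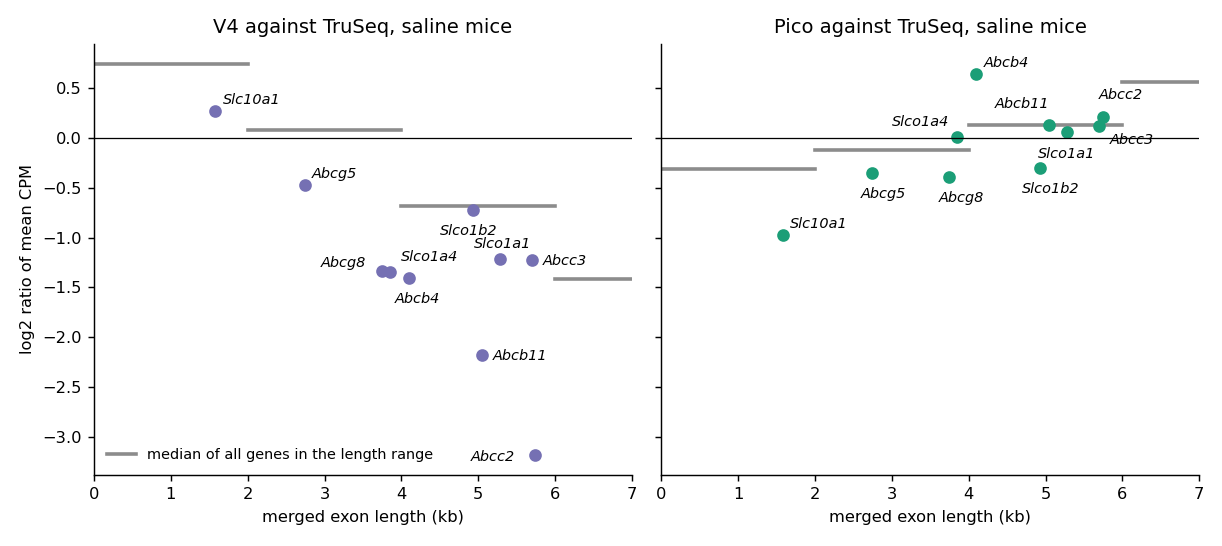
Log2 ratio of mean CPM in saline mice, V4 to TruSeq on the left and Pico to TruSeq on the right, by merged exon length in kb. Points are the 10 members and grey lines the median of all genes under 2, from 2 to 4, from 4 to 6 and from 6 kb upward (drawn to the edge of the axis). Abcc2 and Abcb11 lie lowest in V4 and Slc10a1 lowest in Pico.

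The genes most like Slc10a1 over the 18 libraries were Tmem37, Abhd14b and Acaa2, a mitochondrial thiolase of fatty acid oxidation. Their Pearson correlations were 0.99, 0.99 and 0.98, in log2 CPM centred within each kit and among 6411 genes. Among the members, Slco1a4 (0.97) and Abcc2 (0.94) were most and Abcb11 (0.63) least like Slc10a1. The genes most like Abcb11 were Crot, a peroxisomal carnitine acyltransferase, Ugt2b1, a glucuronosyltransferase, and Hsd3b7, an enzyme of bile acid synthesis, at 0.94, 0.93 and 0.92. The points share mice, kits and treatment, and the correlations are given as a description.

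The half-site AGGTCA alone, searched on both strands, was found in Abcb11, Slco1b2, Slco1a1, Slc10a1 and Abcc2, which is 5 of 9 members against 14% of all windows. The sites in Abcb11 and Slco1b2 are part of the inverted repeat. The GATA motif named earlier was found in Abcg5 and Abcg8 only, including the matches they share, against 9.99% of all windows. The HNF1 half-site was found in Slco1b2 (6.43% of all windows) and the C/EBP motif TTGCNNAA at 1 of the 2 starts of Slc10a1 (9.56%). The HNF4 motif CAAAGTCCA (0.384%) and the string GGGRNYYCC (7.91%) were found in none of the 9. Here R is A or G, Y is C or T and N is any base. This string is 1 letter shorter than the NF-κB consensus, which was not searched. All motif matches given here are matches of letters, not sites of binding.

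The transcription factors known to act on these genes were examined as a list of 15 regulators. In TruSeq 5 were called lower and 3 higher, in Pico 7 and 1, and in V4 5 and 0. The shares of all genes called higher were 12.3%, 6.78% and 3.6%, beside the 21.8%, 10.8% and 7.41% called lower. The 4 called lower in all 3 kits were nuclear receptors. Nr1i3, the constitutive androstane receptor, had a log2 fold change of -4.40 (TruSeq), -3.94 (Pico) and -3.32 (V4). Nr0b2, the corepressor SHP that is itself a target of FXR, had -1.28 (TruSeq), -1.76 (Pico) and -1.30 (V4). Rara, a retinoic acid receptor, had -1.02 (TruSeq), -1.34 (Pico) and -1.35 (V4). Nr1h4, which encodes FXR, had -0.50 (TruSeq), -0.67 (Pico) and -0.59 (V4). Hnf4a rose in Pico and TruSeq, with log2 fold changes of 0.65 and 0.91, and its V4 value was 0.48 (limma adjusted p 0.166).

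Other carriers of the 2 faces did not all follow. For them and for the scaffold proteins below, the shares of all genes called are those given with the regulators. Among 8 further basolateral transporters listed, 2 were lower and 2 higher in Pico and in TruSeq, and 2 were lower and 1 higher in V4. Abca1, which loads cholesterol onto apolipoprotein A-I at the basolateral face, rose in all 3 kits, with log2 fold changes of 1.52 (TruSeq), 1.42 (Pico) and 1.59 (V4). Slco2b1, a further organic anion carrier, fell in all 3 kits, with log2 fold changes of -1.24 (TruSeq), -1.08 (Pico) and -1.33 (V4). Abcc6 had -1.24 (TruSeq), -1.17 (Pico) and -1.16 (V4). Slc51a was not listed in the tables used here. Of the canalicular transporters outside the 10, 3 of 8 were lower and 1 higher in Pico, 1 of 8 lower in V4 and 5 of 9 lower in TruSeq. Slc47a1, an exporter of organic cations, fell in all 3 kits, with -1.36 (TruSeq), -0.96 (Pico) and -0.94 (V4). Npc1l1 was listed in TruSeq alone, at no more than 1 count.

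Of 9 proteins that anchor or traffic canalicular transporters, 4 were lower and 2 higher in Pico and in TruSeq, and 1 was lower and 1 higher in V4. Pdzk1, a scaffold with PDZ domains, fell in all 3 kits, with log2 fold changes of -0.98 (TruSeq), -0.65 (Pico) and -0.82 (V4). Slc9a3r1, a related scaffold, rose, with log2 fold changes of 1.04 (TruSeq), 0.73 (Pico) and 0.95 (V4).

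Markers of several cell types moved with the treatment. Of all genes, 21.8%, 10.8% and 7.41% were called lower and 12.3%, 6.78% and 3.6% higher (TruSeq, Pico and V4). Of 6 hepatocyte markers, 2 were lower and 1 higher in TruSeq, 4 and 2 in Pico and 2 and 1 in V4. Alb and Cps1 fell and Tat rose in all 3 kits. Their summed level was 69913 to 81791 CPM in saline and 60962 to 67964 CPM in IL-1β mice in Pico. In V4 it was 45645 to 58826 and 38780 to 44105 CPM, and TruSeq gave 90078 to 108708 and 71192 to 74680 CPM. The sum was thus lower in every IL-1β library than in any saline library of its kit. It is weighted to the most abundant markers, with Alb alone at a mean of 31930 CPM in the IL-1β mice in Pico. Alb, Ttr, Apoa1 and Cps1 had negative log2 fold changes in each kit, and Tat and Apob had positive ones.

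Of 6 Kupffer cell markers, 4 were lower in TruSeq and in Pico and 2 in V4, with 1 higher in TruSeq, and their sum in TruSeq was 125 to 210 CPM in saline and 61.3 to 88.6 CPM in IL-1β mice. The sinusoidal endothelial list of 6 had 4 lower and 1 higher in TruSeq, 3 and 1 in Pico and 2 and 0 in V4, with TruSeq sums of 179 to 199 and 105 to 139 CPM. Of 5 stellate cell markers, 4 were lower in TruSeq, 3 in Pico and 2 in V4, with TruSeq sums of 276 to 312 and 144 to 190 CPM. In Pico the sums in saline and IL-1β mice were 175 to 229.5 and 89.7 to 126 CPM for Kupffer cells, 331 to 373 and 216 to 252 CPM for endothelium, and 313 to 358 and 195 to 267 CPM for stellate cells. V4 gave 89.0 to 179 and 43.4 to 68.2 CPM for Kupffer cells, 83.9 to 121 and 48.1 to 68.5 CPM for endothelium, and 267 to 301 and 171 to 198 CPM for stellate cells. None of these sums overlapped between treatments. Of all single genes, 27.9% in TruSeq, 18.6% in Pico and 18.6% in V4 had every IL-1β library below every saline library. The share among sums of other gene lists was not computed, here or for the hepatocyte markers.

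Of the neutrophil markers listed in a kit, 3 of 5 were called higher in TruSeq, 3 of 3 in Pico and 2 of 4 in V4, with 0 called lower. S100a8 and S100a9 were called higher in all 3 kits, with a summed list level of 3.05 to 5.85 CPM in saline and 37.0 to 76.0 CPM in IL-1β mice in TruSeq. The sums were 0.971 to 5.15 (saline) and 28.9 to 36.5 CPM (IL-1β) in Pico, and 2.07 to 4.75 and 32.9 to 57.8 CPM in V4. Ly6g and Elane were listed in TruSeq at no more than 2 and 3 counts, and Mpo was not listed in the tables used here. Elane, listed in V4 too, had a log2 fold change of -0.89 in TruSeq and 0.16 in V4 and was not called. The cholangiocyte list of 7 had 4 called higher and 1 lower in TruSeq, 2 higher in Pico and 1 higher in V4. Its TruSeq sum was 63.0 to 79.3 CPM in saline and 94.3 to 108 CPM in IL-1β mice, while Pico gave 42.7 to 65.2 and 82.4 to 120.1 CPM. The V4 sums of 89.0 to 117 and 96.8 to 114 CPM overlapped. Slc10a2, the apical sodium-dependent bile acid transporter of cholangiocytes and ileum, rose in all 3 kits, with log2 fold changes of 1.91 (TruSeq), 2.13 (Pico) and 1.24 (V4). The part of these changes in the fall of the 10 transporters was not tested.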

How the data were processed

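The authors deposited 3 gene tables of counts (whole numbers of reads or read pairs per gene), 1 per kit, in which sense counts were kept for the stranded Pico and TruSeq kits. Per the labels and the methods of the study, reads were aligned with GSNAP to mm9 and normalized by resampling of reads with PORT, and totals per gene table still differed between libraries. Kits were normalized separately, so levels are not on 1 scale across kits. The members, lists and tests were chosen with earlier results of these data known. Genes named outside the members were those of a list called in the same direction in all kits with the largest mean change, genes not listed, and the 3 closest in pattern to Slc10a1 and Abcb11. Hnf4a, Slco1a5, Slco1a6, Gm6614, Slco1c1, Krt19 and Krt7 were named after their values were seen.

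Counts were fitted per kit with limma 3.58.1 (voom, library totals, genes above 0 in at least 1 library) in R 4.3.3, with Benjamini-Hochberg adjustment over all genes. Alternatives used edgeR 4.0.16, DESeq2 1.42.0, other scaling, filters, thinning to 4024632 counts (5 draws) and leaving out each library. For ratios and log2 CPM, 0.5 counts were added. Scripts were tested on simulated data. By the labels and methods, RNA of the same mouse went into each kit, so the mouse number pairs libraries across kits: deviations of the same mouse from its group mean correlated at 0.18 to 0.41 (Pico with TruSeq), 0.15 to 0.37 (V4 with TruSeq) and 0.06 to 0.21 (Pico with V4), and those of different mice at -0.32 to -0.02. Depth was 4024632 counts or more per library, and 52 counts was the lowest value of a member. Counting intervals were not used, as reads without molecular identifiers are not independent molecules. Gene positions are those of GENCODE vM1 on mm9.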

Additional observations from a re-analysis of the deposited data

How the results depend on the processing

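All 420 log2 fold changes of members under the alternatives were negative; 32 lost the call and 10 gained it. With a library left out, the members called lower were 8 to 10 for TruSeq, 8 to 10 for Pico and 3 to 8 for V4. In V4 the count was 3 without IL-1β mouse ILB.9583 or saline mouse UNT.9574 or UNT.9575, and 3 at an adjusted p of 0.01. The change in uptake minus canalicular level was -0.27 to -0.05 (TruSeq), -0.14 to 0.18 (Pico) and -0.19 to -0.05 (V4) without a library, and 0.12 in V4 with the median over members. The cause was not tested. TMM factors gave fewer lower among all calls (49.1%, 47.1% and 50.3% in TruSeq, Pico and V4), and the members kept a negative sign. With the replicate block (the mouse), 0 members passed the adjusted threshold between kits in each of the 3 pairs, as without it, while 1 gene that is no member was called between Pico and TruSeq against 0 without the block. Without mouse UNT.9576, 57 genes (V4 with TruSeq) and 39 (Pico with V4) were called, with 0 members. With 3 mice per treatment, the interactions were weakly resolved. Between TruSeq and either of the other kits, kit, read length and sequencer cannot be told apart. Pico and V4 shared read length and sequencer but not RNA input.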

Other observations

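Among the members, the same mice were often the lowest of their treatment. IL-1β mouse ILB.9583 was the lowest IL-1β mouse for 9 of 10 members in TruSeq, 9 in Pico and 7 in V4, and for 6 members in all 3 kits. Saline mouse UNT.9576 was the lowest saline mouse for 8 members in TruSeq, 5 in Pico and 7 in V4, yet it was the highest for Slc10a1 in each kit. How often each mouse was the lowest over all genes was not computed, so these counts are a description. The kits share the mice and their RNA.

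Slc10a1 made up 34.8% to 41.8% of the summed uptake level (CPM per kb) in saline and 30.0% to 33.2% in IL-1β mice in Pico. In TruSeq the shares were 46.7% to 57.9% and 41.4% to 48.2%, and in V4 64.8% to 76.4% and 64.4% to 70.1%, with overlap in both.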
